A study of Mus musculus with 12 samples.

Results

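Mouse muscle stem cells (MuSCs) held under a compression device were compared by RNA sequencing with MuSCs left uncovered for the same time in culture. The comparison used 6 of the 12 libraries of the series, the 3 of 2+3d-C and the 3 of 5d-U, and every gene counted in them. All cells came from hindlimb muscle of Pax7-ZsGreen mice, in which the Pax7 promoter drives a green fluorescent protein, and were isolated by fluorescence-activated cell sorting at an age of 3 to 6 months according to the methods. They were seeded on plastic coated with Matrigel and fibronectin, in DMEM with fibroblast growth factor, horse serum, fetal bovine serum and chicken embryo extract. The 5d-U cells stayed uncompressed for 5 days. The 2+3d-C cells grew uncompressed for 2 days and then for 3 days beneath a silicone (PDMS) film whose pillars, about 4 µm high, set the height left to the cells. Cells of both groups therefore had the same age in culture and the same medium, and no library of 2+3d-C came from freshly sorted cells. The other 6 libraries, 3 of freshly sorted cells (F) and 3 taken at day 2 before compression (2d-U), entered the fit for its estimate of the spread and are otherwise quoted only where a value calls for them.

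MuSCs lie between the muscle fiber and its basal lamina and are quiescent in resting muscle. On injury or isolation they enter the cell cycle as Myod1-expressing myoblasts, and they then either switch on myogenin (Myog) and fuse into fibers or return to quiescence. Notch signaling, extracellular matrix that the cells lay down themselves and inhibitors of growth factor signaling such as Sprouty1 are known to hold the quiescent state.

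Gene counts summed to 20953163, 29384369 and 30593562 reads in the 5d-U libraries, and from 12540745 to 62424851 in the compressed ones. The counts were made without molecular identifiers, so the smallest detectable level, set here at 3 reads, covers counting error only. Of 55335 genes, 43330 had a read in at least 1 of the 6 libraries and 22635 were tested. Values below are RPKM, reads per kilobase of exon scaled to the TMM-adjusted library size, and are listed in the order of replicates 1, 2 and 6 for 5d-U and replicates 4, 5 and 10 for 2+3d-C. Fold changes are on the log2 scale as 2+3d-C minus 5d-U with their standard error (SE), and adjusted p-values (q) are from the quasi-likelihood test of edgeR over all tested genes. The labels do not say whether the libraries came from separate animals or cultures, so the p-values measure the spread between these libraries, which may be technical. In bulk RNA, fewer cells of a type and less RNA per cell cannot be told apart. Reads were also counted without strand, so those of overlapping genes are not separated. Of the genes named below, Mcm7, Bax, Msc, Tapbp, Cebpb, Hsp90b1, Pkm, Gabarapl1, Sqstm1, Ctsl, Hspa1a, Cfl1, Ccn2, Kcnk2 and Emd share between 12.2% and 29% of their exon length with another gene, besides those marked where they appear.

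At an adjusted p under 0.05, 2068 genes were higher in 2+3d-C (9.14% of those tested) and 3042 were lower (13.4%), together 5110 (22.6%). Counts of called members in the lists below are to be read beside these shares. All 3 compressed libraries lay above all 3 uncompressed ones in 2858 genes (12.6%) and below them in 6732 (29.7%). Changes were large, with a median of 2.95 among the higher and -3.85 among the lower genes, and 1014 rises and 1911 falls went past 3 on the log2 scale, or 8-fold. The median over all tested genes was -1.05, but -0.07 over the 8835 genes averaging 10 CPM (counts scaled to library size, without regard to gene length) or more, of which 1759 were higher and 1860 lower. The excess of falls therefore lay among genes with few reads. Replicates 1 and 6 of 5d-U held 3.78 and 0.646 reads per kilobase on 1546 autosomal genes of families silent in muscle, such as olfactory receptors, while the other 4 libraries held at most 0.197. The number of genes with a read was 39063, 23751 and 33996 in 5d-U against 20724, 15821 and 15365 in 2+3d-C. With the density of reads on the silent families subtracted from every gene, the median was -0.24 over 18675 tested genes. Of the 3042 falls, 2712 stayed called. The part of such reads in the falls of rarely read genes was not tested beyond this. Without 5d-U replicate 6, 1371 genes were higher and 1648 lower, and without 5d-U replicate 2, 1562 were higher and 2557 lower.

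**Figure D1:**
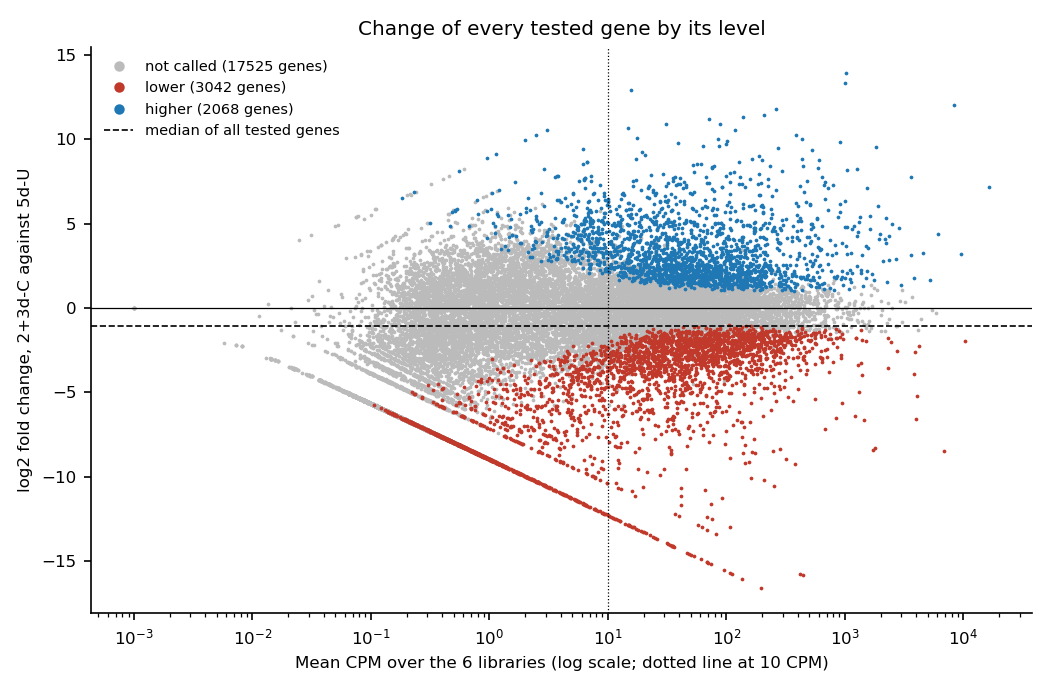
Log2 fold change (2+3d-C minus 5d-U) of each tested gene against its mean CPM over the 6 libraries on a log axis, with genes at an adjusted p under 0.05 in color. Called rises (2068) and falls (3042) were found over the whole range of levels, and below 10 CPM the cloud sat under 0, with a median of -1.05 over all genes and -0.07 from 10 CPM upward.

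The RNA of both groups carried the marks of the myogenic lineage, with Myod1 at 603, 947 and 1275 RPKM in 5d-U and at 2769, 4540 and 2232 in 2+3d-C. Over 10 marker genes of MuSCs and myoblasts, the summed level was 2507, 3726 and 3441 CPM in 5d-U against 12850, 14780 and 10120 CPM in 2+3d-C, and 6 members were higher. Markers of other cell types were also measured, because some moved with the groups. All 5 erythroid genes were higher in the compressed libraries, and hemoglobin beta (Hbb-bs) had 0, 0.0454 and 0.0636 RPKM in 5d-U against 55.8, 175 and 10.6 in 2+3d-C, at least 486-fold higher (q = 0.000144). Hemoglobin genes are near-identical copies, so reads may be split among them. In the libraries of the other groups the mean of Hbb-bs was 201 RPKM in F and 0.0328 in 2d-U. The sum over 10 endothelial markers was 67.7, 11.01 and 26.95 CPM in 5d-U against 322, 435 and 281 in 2+3d-C, with 6 members higher, but 3 without 5d-U replicate 6. The tight junction gene Cldn5 was at 0.951, 0 and 0.06897 RPKM in 5d-U against 48.1, 102.4 and 15.6 in 2+3d-C (7.35 ± 1.45 SE, q = 0.00257).

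Fibroadipogenic markers summed to 180.4, 220.1 and 159 CPM in 5d-U against 2837, 2553 and 4466 in 2+3d-C. 7 of 12 were higher and none lower, or 5 higher without 5d-U replicate 2 or 6 or 2+3d-C replicate 5. Dermatopontin (Dpt), a matrix protein of these cells, led with 0.0504, 0 and 0.142 RPKM against 144, 218 and 119.5 (11.35 ± 0.89 SE, q = 0.00000943), and Col1a1, Col1a2, Col3a1, Dcn, Lum and gelsolin (Gsn) were the others. The calls of Dcn and Lum were lost without 5d-U replicate 2 or 6 or 2+3d-C replicate 5. Col3a1 lost its call without 5d-U replicate 1 or 6 or 2+3d-C replicate 4 or 10. Pdgfra, the receptor that defines these cells, had 0.381, 0.0521 and 0.0828 and 0.848, 0.0241 and 0.009102 RPKM (q = 0.626). Of 8 glial markers 3 were higher, and their sum was 15.2, 6.17 and 10.8 CPM against 312, 612 and 191, mostly from the myelin gene Mbp. 5 of 9 smooth muscle and pericyte markers were higher, among them Myh11 and Rgs5, and 2 were without 5d-U replicate 6, whereas the sum of the list overlapped (66.4, 643 and 734 against 298, 376 and 440.3 CPM). In the tendon list Fmod, Thbs4 and Tnmd were higher and the transcription factor Scx was lower. Mature myofiber markers summed to 1537, 4090 and 7146 CPM in 5d-U against 79.7, 255 and 83.9 in 2+3d-C. Only 3 of 9 were lower, Eno3 the most (given below), and 1 was higher. The falls were 1 without 5d-U replicate 2 or 6 or 2+3d-C replicate 4 or 10. The rise kept its call only when 2+3d-C replicate 10 was the library left out. Immune markers showed no common direction, with 2 of 12 higher, or 1 without 5d-U replicate 2 or 2+3d-C replicate 4 or 5, and with 2 lower, or 1 without 2+3d-C replicate 4. The class II invariant chain Cd74 (0.181, 0.0415 and 0.291 against 2.36, 13.7 and 18.8 RPKM, 6.11 ± 0.92, q = 0.000654) and Cd14 were higher, and Laptm5 and the pan-leukocyte gene Ptprc, with no read in the compressed libraries, were lower. Replicate 5 of 2+3d-C had the most erythroid (317 CPM), glial and endothelial reads, so the 3 libraries were not alike in this respect. The part of such cells or of their RNA in the differences described below was not tested.

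**Figure D2:**
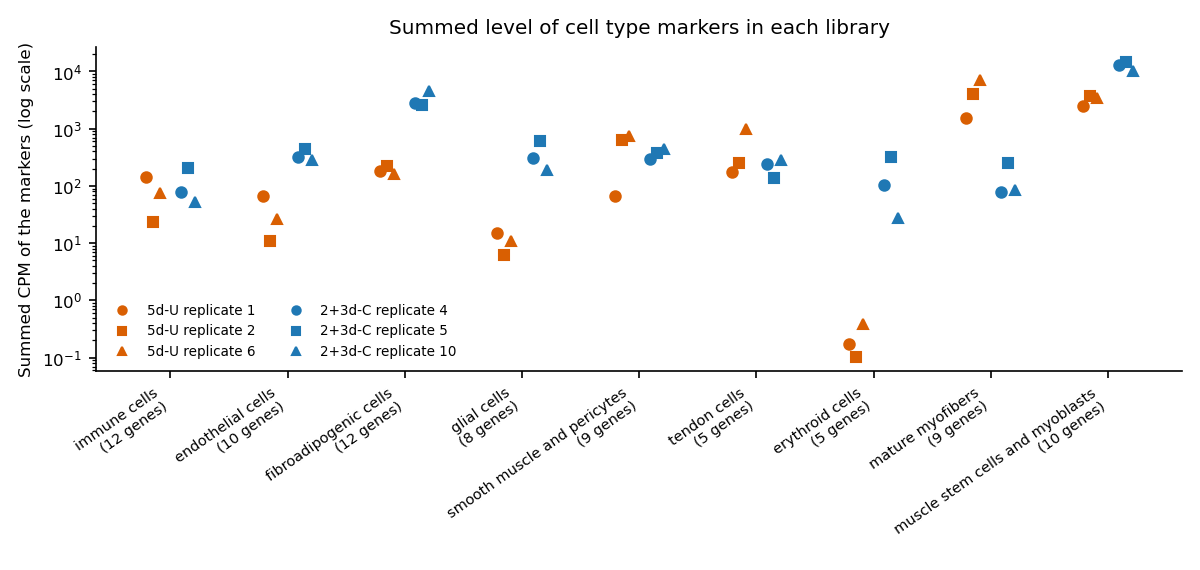
Summed CPM of 9 lists of cell type markers in each of the 3 5d-U and 3 2+3d-C libraries on a log axis. The compressed libraries lay above the uncompressed ones for erythroid, endothelial, fibroadipogenic, glial and MuSC markers and below them for mature myofiber markers, and the groups overlapped for immune, smooth muscle or pericyte and tendon markers. Of the 9 mature myofiber markers 3 were called lower and 1 higher.

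The 10 largest rises among genes with at least 10 CPM on average mixed chemokines, matrix genes and enzymes. Neu2, a cytosolic sialidase, which removes sialic acid from glycoproteins and glycolipids, had 0.101, 0.0269 and 0.0189 RPKM in 5d-U against 601, 1257 and 515 in 2+3d-C (13.95 ± 1.19 SE, q = 0.0000151). It was thus nearly without reads in every uncompressed library and among the abundant transcripts in every compressed one. The neutrophil chemokines Cxcl2 (13.37 ± 1.84 SE) and Cxcl1 (12.06 ± 1.79) and the granulocyte growth factor Csf3 (11.78 ± 1.27) followed. Prelp and Dpt, which code for proteins of the extracellular matrix, rose by 11.44 ± 1.0 and 11.35 ± 0.89, and the metalloreductase gene Steap4 by 10.92 ± 1.0. Sfrp5, a secreted Wnt antagonist, had no read in 5d-U and 13.2, 27.8 and 8.74 RPKM in 2+3d-C, at least 248-fold higher. H2-Q6, at least 1127-fold higher, is a class I antigen gene with near-identical copies, and Hbb-bs was the tenth.

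The 10 largest falls were of genes that left few or no reads in the compressed libraries, and most belonged to mitosis or to muscle differentiation. Cdca8, Cdca3, Nuf2 and Aurkb act in chromosome segregation, and were at least 1456, 1170, 802 and 755-fold lower. Myog, Tnni1 and Mymk, which code for myogenin, the slow-fiber troponin I and the fusion factor myomaker, were at least 4559, 2105 and 735-fold lower on average over the 5d-U libraries. Secretin (Sct) fell from 34.5, 729 and 3378 RPKM, at least 4816-fold, and Tmem119 and Dynap, membrane protein genes, at least 1206- and 1031-fold. Every uncompressed library held the mitotic genes, as in Aurkb (38.5, 60.2 and 43.5 RPKM; mm10 chr11:69045647-69051664) and Cdca3 (42.5, 55.4 and 129 RPKM), while Myog was near 0 in 5d-U replicate 1 (0.378, 585 and 1106 RPKM).

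Genes of DNA replication were lower almost throughout. Of 48 members of that list 41 fell and none rose, with a median log2 fold change of -3.80 against -1.05 over all tested genes, and at least 38 fell whichever library was left out. Rrm2, the small subunit of ribonucleotide reductase, which makes the deoxynucleotides for S phase, had 855, 1030 and 723 RPKM in 5d-U against 10.3, 18.3 and 2.19 in 2+3d-C. The lowest uncompressed library was therefore far above the highest compressed one (-6.41 ± 0.94 SE, q = 0.000329). Its partner subunit Rrm1 fell by a smaller amount (-2.95 ± 0.54, q = 0.0015). Mcm10, a factor of replication fork assembly, had 4.61, 7.32 and 3.03 RPKM in 5d-U and no read in 2+3d-C, at least 207-fold lower. Gins3, a subunit of the replicative helicase, was at least 192-fold lower, and thymidine kinase (Tk1) and the clamp loader subunit Rfc1 fell by -6.76 ± 0.73 and -3.89 ± 0.51. The fall was not complete for all members. Mcm7, a subunit of the helicase ring, kept 18.3, 22.5 and 17.3 RPKM after 55.6, 77.7 and 37.9 (-1.56 ± 0.36), a call lost without the filter on low counts (q = 0.061), and Pcna, the sliding clamp, which also serves DNA repair, did not pass the test (109, 113 and 257 against 48.9, 107 and 34.9 RPKM, q = 0.083).

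Mitotic genes were lower still. In this list 42 of 45 members fell, none rose, the median was -7.27, and their summed level was 5934, 8274 and 10240 CPM in 5d-U against 154, 274 and 156 CPM in 2+3d-C. Cdk1, the kinase that drives entry into mitosis, had 92.5, 126 and 240.4 RPKM in 5d-U against 0.148, 0 and 0.573 in 2+3d-C (-9.23 ± 1.07 SE, q = 0.0000523). Birc5, known as survivin, and the centromeric histone Cenpa fell by -10.52 ± 1.2 and -8.45 ± 1.04. Ube2c, the ubiquitin-conjugating enzyme of the anaphase-promoting complex, had reads in only 1 compressed library (0, 1.76 and 0 RPKM against 146, 188 and 393 in 5d-U, q = 0.00178). Ndc80 and Ncapg, a kinetochore and a condensin subunit, were at least 431- and 518-fold lower. The members that did not pass were Cdc25c, Foxm1 and Pttg1, named after their values were seen, and the first 2 lay below 5d-U in all 3 compressed libraries. At day 2, before compression, Cdk1 had a mean of 98.3 RPKM and Aurkb of 65.3, near the values of 5d-U, and in F cells they had 1.91 and 2.01.

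**Figure D3:**
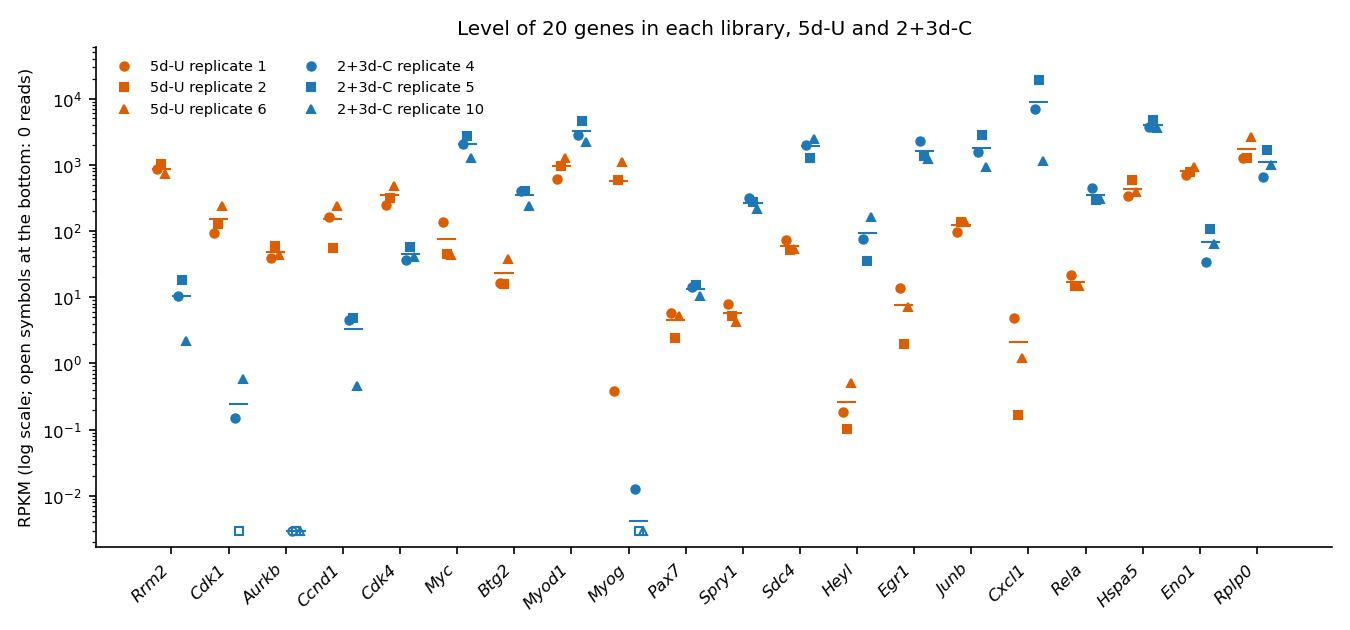
RPKM of 20 genes in the 3 5d-U and 3 2+3d-C libraries on log axes, 1 point per library. Cell cycle genes (Rrm2, Cdk1, Aurkb, Ccnd1, Cdk4) lay lower in all compressed libraries, quiescence, immediate-early and inflammatory genes (Spry1, Sdc4, Heyl, Egr1, Junb, Cxcl1, Rela) lay higher, and Myog was spread from 0.378 to 1106 RPKM among the uncompressed libraries.

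The promoters of both lists were searched for the motifs that textbooks assign to their control, since the members fell together. Sequences were taken from RefSeq (build GRCm38.p6), 250 bases before each start. E2F motifs (TTTGGCGC, TTTCCCGC, TTTCGCGC or TTTGCCGC on either strand), read by the factors that open S phase, were found in 10 of the 38 DNA replication genes with a window (26.3%), in 2 of 36 mitotic genes (5.56%) and in 2.16% of all 27025 genes. The CHR element (TTTGAA on either strand), through which the DREAM complex silences mitotic genes in resting cells, was in 14 of the 36 mitotic genes (38.9%), 6 of the 38 replication genes (15.8%) and 18.3% of all genes. A match is a description of letters and not a shown binding site. The 150 bases before the start of 4 genes that were near or at 0 in the compressed libraries are printed as examples, because they hold these motifs singly or together, with the matches in capitals.
Gins3 (chr8:95633409-95633558, plus strand, 1 E2F and 1 CHR match): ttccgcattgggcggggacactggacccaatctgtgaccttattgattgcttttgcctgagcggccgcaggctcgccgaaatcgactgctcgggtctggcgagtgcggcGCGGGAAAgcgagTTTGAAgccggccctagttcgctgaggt
Cdk1 (chr10:69352913-69353062, minus strand, 1 E2F and 2 CHR matches): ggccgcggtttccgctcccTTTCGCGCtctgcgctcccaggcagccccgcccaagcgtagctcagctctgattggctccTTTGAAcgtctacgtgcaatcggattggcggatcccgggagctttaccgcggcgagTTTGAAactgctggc
Ncapg (chr5:45669775-45669924, plus strand, 1 CHR match): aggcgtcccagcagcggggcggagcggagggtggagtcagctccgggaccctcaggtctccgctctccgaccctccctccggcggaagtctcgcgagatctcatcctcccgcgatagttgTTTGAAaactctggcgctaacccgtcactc
Ube2c (chr2:164769779-164769928, plus strand, 1 CHR match on the other strand): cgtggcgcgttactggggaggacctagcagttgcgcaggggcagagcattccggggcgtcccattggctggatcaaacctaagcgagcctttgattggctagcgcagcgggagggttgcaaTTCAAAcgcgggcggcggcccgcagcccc
Both matches of Gins3 and the CHR matches of Ncapg and Ube2c lie closer to the start than the E2F match of Cdk1. Ncapg and Ube2c share 13.4% and 22.8% of their exon length with another gene, which counting without strand cannot separate.

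Among the genes that commit a cell to S phase, 7 of 9 fell and 2 rose. Cyclin D1 (Ccnd1), the growth-factor-induced partner of Cdk4, had 160.4, 55.3 and 238 RPKM in 5d-U against 4.46, 4.89 and 0.455 in 2+3d-C (-5.54 ± 0.85 SE, q = 0.000474). Cdk4 itself fell from 245, 319.7 and 482 to 36.3, 56.6 and 41.03 RPKM (-2.97 ± 0.4). Ccnd2, Ccnd3, Cdk2 and Cdk6 fell by between -2.54 and -2.96 on the log2 scale, and Mycl was at least 97.7-fold lower. Against this, Myc, the transcription factor that drives growth and cell cycle entry, was higher in every compressed library, at 2050, 2764 and 1283 RPKM against 137, 45.2 and 43.04 in 5d-U (4.76 ± 0.58, q = 0.0000774). Its paralog Mycn rose at a low level (2.88 ± 0.8, q = 0.0186), and lost the call without 5d-U replicate 2 (q = 0.0642) or 6 (q = 0.0747). Ccnd1 and Cdk4 share 23.4% and 19.7% of their exon length with another gene.

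The inhibitors of the cycle did not move as a group. 3 of 13 rose, 2 fell, and the median was -0.36 (all tested genes: 9.14% higher, 13.4% lower). Btg1 and Btg2, antiproliferative genes, rose, with Btg1 at 28.2, 20.4 and 20.3 against 334, 416 and 256 RPKM (3.87 ± 0.45 SE, q = 0.0000526) and Btg2 at 16.2, 15.9 and 38.3 against 401, 399 and 242. The third, Cdkn1c (p57), was higher in all compressed libraries (3.26 ± 1.06, q = 0.0391), but the call was lost when 5d-U replicate 1 or 2 or 2+3d-C replicate 5 or 10 was left out, and 30.7% of its exon length is shared. Cdkn1a (p21) overlapped between the groups, with 182, 170.1 and 768 and 152, 505 and 215 RPKM (q = 0.634), and Cdkn1b (p27) had few reads in either (q = 0.317). The INK4 genes Cdkn2b and Cdkn2c fell, Cdkn2b from 7.15, 56.7 and 149 to 0.862, 0 and 0 RPKM, and Cdkn2c lost its call without 5d-U replicate 6 (q = 0.0557). The list had 6 falls without 2+3d-C replicate 4.

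Of 20 p53 genes 7 fell and 3 rose. Phlda3 and Ccng1, which p53 induces, fell by -4.24 ± 0.61 SE and -4.63 ± 0.55, and Bax, which permeabilizes mitochondria in apoptosis, fell from 285, 316 and 1082 to 20.3, 81.6 and 32.5 RPKM. The death receptor Fas rose (2.91, 0.811 and 1.75 against 89.3, 218 and 87.5 RPKM, 6.17 ± 1.08, q = 0.00116), and so did the kinase Plk2. Trp53 itself gave 0.06 ± 0.42 (q = 0.918). Clustered histone genes, whose messages lack poly(A) tails and are therefore poorly sampled by this oligo(dT)-primed method, had 26 of 70 members tested, of which 14 fell and none rose, or 6 without 5d-U replicate 6 and 8 without 2+3d-C replicate 4 or 10. The linker histone Hist1h1b had 12.9, 10.6 and 78.5 RPKM in 5d-U and no read in 2+3d-C.

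Myogenic regulators separated by stage. Of 17 genes 5 rose and 4 fell, and the median was 0.36. Myod1 (mm10 chr7:46376474-46379099), the factor of activated myoblasts, was higher in every compressed library at the levels given above (1.76 ± 0.43 SE, q = 0.0101). Pax7, which marks MuSCs, had 5.74, 2.44 and 5.22 RPKM in 5d-U against 14.4, 15.04 and 10.3 in 2+3d-C (1.57 ± 0.47, q = 0.0274). The groups did not overlap, but the call was lost without 5d-U replicate 2 (q = 0.0806) or 6 (q = 0.0534) and without 2+3d-C replicate 4 (q = 0.0794), and also with the 6 libraries fitted alone (q = 0.0512). Myf5 was at 91.1, 66.2 and 62.3 against 91.4, 107 and 178 RPKM and did not pass (q = 0.242). Musculin (Msc), a repressor of Myod1 activity, rose from 1.995, 0.0684 and 0.192 to 282, 519.5 and 216 RPKM (8.82 ± 1.1, q = 0.000101), and Mef2d rose by 3.23 ± 0.53. Eya1 rose, and Six4 and Id1 fell, with adjusted p between 0.0332 and 0.0453, and each of these calls was lost when 5d-U replicate 6 or any of several other libraries was left out. Leaving out 5d-U replicate 6 left 3 rises and 1 fall, 5d-U replicate 2 left 3 rises, 2+3d-C replicate 4 left 3 rises and 2 falls, and 2+3d-C replicate 10 left 1 fall.

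Myog, which commits myoblasts to differentiation, had 1, 0 and 0 reads in the compressed libraries and 0.378, 585 and 1106 RPKM in 5d-U (mm10 chr1:134289989-134292548; q = 0.00314). The uncompressed libraries were thus far apart, with replicate 1 close to the compressed ones and replicates 2 and 6 far above them. The same split held for the contractile genes that follow Myog. Of 34 sarcomere and differentiation genes 18 fell and 1 rose, with a median of -4.38 (-3.77 with genes near 0 at their limits), but 10 fell without 5d-U replicate 6 and 11 without 2+3d-C replicate 10. Tnni1 had 0.145, 77.5 and 247 RPKM in 5d-U and no read in 2+3d-C, and embryonic myosin (Myh3) had 0.129, 14.2 and 3.51 RPKM and no read. Tnnt2, the cardiac and embryonic troponin T, was present in all uncompressed libraries (17.7, 30.5 and 75.8 RPKM) and near 0 in the compressed ones (-10.06 ± 1.76 SE, q = 0.00116). The fast light chain Mylpf overlapped between the groups (4.62, 442 and 1002 against 4.64, 21.5 and 5.71 RPKM), and lost its call without 5d-U replicate 6 (q = 0.072) or 2+3d-C replicate 4 or 10. Desmin (Des), an intermediate filament already made in myoblasts, was the member that rose (152, 314 and 179.9 against 544, 561 and 508 RPKM, 1.32 ± 0.39, q = 0.0264), a call lost without 5d-U replicate 1 or 6 or 2+3d-C replicate 4 or 10. The enolase of muscle, Eno3, was high in all 5d-U libraries (792, 1511 and 2669 RPKM) and fell to 5.94, 35.99 and 9.44 (-6.6 ± 1.14).

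Genes of the MuSC surface and of quiescence were higher in 2+3d-C. 19 of 28 rose and none fell, with a median of 4.26 against -1.05 over all tested genes, and between 17 and 20 rose with a library left out, with 1 fall without 2+3d-C replicate 4. Many of these genes were displayed by the study from the same libraries, so the list is not independent evidence of its direction. Spry1 (mm10 chr3:37639947-37644598), the feedback inhibitor of growth factor signaling, had 7.81, 5.27 and 4.18 RPKM in 5d-U against 310, 277 and 216 in 2+3d-C (5.54 ± 0.47 SE, q = 0.0000064). Syndecan-4 (Sdc4), a heparan sulfate proteoglycan of the MuSC surface, rose from 72.8, 51.1 and 53.01 to 1981, 1245 and 2473 RPKM, and the adhesion molecule Vcam1, used to sort MuSCs, from 16.4, 12.3 and 7.77 to 377, 286 and 177. In these genes the lowest compressed library was over 10 times the highest uncompressed one. Chondrolectin (Chodl), a membrane lectin, went from 0.395, 0.00634 and 0.0534 to 158, 172 and 148 RPKM, the largest change of the list (10.04 ± 1.25). Apoe, which carries lipids and is also made by macrophages and glia, went from 6.66, 0.619 and 4.25 to 594, 1862 and 1079 RPKM. Members that did not pass included Itga7, the laminin receptor of myogenic cells (31.1, 36.3 and 10.8 against 52.6, 10.3 and 52.3 RPKM, q = 0.438), and Cd34, which was high in 5d-U replicate 1 alone (18.7, 0.382 and 0.6497 against 28.8, 20.9 and 32.8 RPKM, q = 0.117).

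Of the Notch receptors and ligands 4 of 10 rose and 1 fell, with a median of 3.01, but 2 rose without 5d-U replicate 6. Notch3, known from MuSCs and from pericytes, had 0.204, 0.237 and 1.28 RPKM in 5d-U against 56.5, 9.65 and 46.3 in 2+3d-C (6.04 ± 0.92 SE, q = 0.000422). The ligand Jag1 rose from 0.902, 0.275 and 0.235 to 36.1, 5.86 and 7.78 RPKM (5.14 ± 0.8), in every compressed library but most in replicate 4. Dll4 and Dlk1 rose by 5.14 ± 1.25 and 5.08 ± 1.36, calls lost without 5d-U replicate 6 (q = 0.0537 and 0.0702) and for Dlk1 also without 5d-U replicate 2, and the ligand Jag2 fell by -3.35 ± 0.8. Notch1 was above 5d-U in all compressed libraries without passing the test (3.71 ± 1.33, q = 0.0563). Dll1, the ligand of myoblasts, lay below 5d-U in all of them (3.62, 9.71 and 4.07 against 1.704, 2.03 and 0.0324 RPKM, q = 0.083).

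Of the genes that Notch is known to switch on, Heyl, Hey1 and Nrarp were higher, while Hes1 did not pass the test. Of 6 tested Hes, Hey and Nrarp genes 3 rose and 1 fell, with a median of 0.70 (1.20 with Hey2, near 0, at its limit). Heyl had 0.187, 0.102 and 0.506 RPKM in 5d-U against 76.7, 34.9 and 164 in 2+3d-C (8.45 ± 0.88 SE, q = 0.0000255), and Hey1 rose from 0.465, 3.01 and 4.02 to 15.1, 11.5 and 10.8 RPKM (2.32 ± 0.65, q = 0.0198), a call lost without 2+3d-C replicate 4 (q = 0.0667). Nrarp rose by 4.52 ± 0.87, though 79.4% of its exon length is shared with another gene. Hes1 overlapped between the groups (19.6, 57.5 and 122 against 18.8, 50.02 and 37.1 RPKM, q = 0.2). Hes6, which opposes Hes1 and promotes differentiation, fell from 196, 1148 and 4386 to 6.56, 5.94 and 4.31 RPKM (-8.41 ± 1.6, q = 0.00201). Among 17 genes of Notch processing 3 rose and 1 fell, the glycosyltransferase Lfng, a fall not called without 5d-U replicate 2 or 6 or 2+3d-C replicate 4 or 10. Numb, an inhibitor of Notch, rose from 2.76, 4.06 and 1.45 to 17.3, 10.1 and 13.3 RPKM (2.3 ± 0.46, q = 0.00261). Ncstn, a subunit of gamma-secretase, which releases the Notch intracellular domain, rose (1.18 ± 0.39, q = 0.0418), but kept its call only when 2+3d-C replicate 5 was the library left out. Rbpj, the DNA-binding partner of Notch, gave 0.48 ± 0.53 (q = 0.487). The RBPJ motif TGGGAA was in the windows of 1 of 3 Hes, Hey and Nrarp genes, of 2 of 23 quiescence genes (8.7%) and of 24.1% of all genes.

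Immediate-early genes, which cells transcribe within minutes of a growth factor, stress or mechanical stimulus, rose almost as a block. Of 23 tested 21 rose and none fell, with a median of 4.96, and 21 rose also with any library left out. Egr1, the zinc finger factor downstream of ERK, had 13.6, 1.93 and 7.15 RPKM in 5d-U against 2291, 1363 and 1201 in 2+3d-C (7.74 ± 0.8 SE, q = 0.0000247). Nr4a1, an orphan nuclear receptor, rose from 1.02, 0.467 and 0.459 to 147, 97.8 and 88.5 RPKM (7.42 ± 0.56, q = 0.0000028). No uncompressed library came near a compressed one in either gene. Klf4, Atf3 and Zfp36 rose by 6.71 ± 0.58, 6.64 ± 0.59 and 7.09 ± 0.64, and the phosphatase Dusp1, which switches off MAP kinases, by 5.38 ± 0.57. Junb, a subunit of AP-1, was already abundant in 5d-U (97.2, 135 and 138 RPKM) and rose to 1579, 2861 and 938 (3.86 ± 0.52). In F cells, which went into TRIzol at the sorter, Egr1 had a mean of 1064 RPKM and Junb of 876, and in 2d-U cells, cultured and lysed without a device, 13.5 and 117. The device was removed just before lysis from 2+3d-C alone, so the effect of compression and that of its release or of the handling cannot be told apart.

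The feedback inhibitors of ERK signaling had 4 rises and 1 fall among 9 genes and a median of 1.21. Beside Spry1, Spred1 rose from 5.197, 10.2 and 3.74 to 171, 38.1 and 88.1 RPKM (3.96 ± 0.7 SE, q = 0.0012), and Dusp5 and Spry4 rose by 2.5 ± 0.53 and 2.3 ± 0.51. Dusp4 fell by -2.51 ± 0.6, and Dusp6, an ERK phosphatase that ERK itself induces, was above 5d-U in all compressed libraries but did not pass (14.1, 22.7 and 11.8 against 34.4, 25.9 and 52.4 RPKM, q = 0.0574). Spry1 and Dusp5 share 24.4% and 22.1% of their exon length with another gene. In the BMP list 4 of 15 rose and 3 fell, or 1 fell without 5d-U replicate 6 or 2+3d-C replicate 4 or 10. Bmp6 and Bmp4 went from 1.12, 0.0536 and 0.0876 and 2.88, 0.0775 and 0.326 RPKM in 5d-U up to 95.9, 20.7 and 89.3 and 45.95, 114 and 44.4 in 2+3d-C (7.35 ± 1.1 and 5.96 ± 1.03), and the receptor Bmpr2 rose by 2.69 ± 0.55. Id3, a target of BMP signaling, overlapped between the groups (485, 935 and 2822 against 1010, 3433 and 1144 RPKM, q = 0.611), and Grem1, a BMP antagonist, had no read in 2+3d-C after 1.75, 1.87 and 1.401 RPKM.

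Cytokine genes and the NF-kB pathway rose together. 21 of 31 tested genes were higher and none lower, with a median of 5.05. With a library left out between 18 and 22 rose, and 2 fell without 2+3d-C replicate 4 and 1 without replicate 5. Cxcl1 (mm10 chr5:90891241-90893115), which attracts neutrophils, had 4.91, 0.167 and 1.22 RPKM in 5d-U against 6884, 18850 and 1157 in 2+3d-C (12.06 ± 1.79 SE, q = 0.000356). Its neighbor Cxcl2 (mm10 chr5:90903871-90905938) had 0.231, 0 and 0.0472 and 782, 1996 and 141 RPKM, and Csf3 0.184, 0 and 0.138 and 211, 755 and 146. In all 3 genes replicate 5 was the highest and replicate 10 the lowest compressed library, several times apart, while all of them lay above 5d-U. The monocyte chemokine Ccl2 rose from 48.2, 7.59 and 18.2 to 519.6, 2312 and 138 RPKM (5.33 ± 1.25, q = 0.00752). The subunits of NF-kB varied less between libraries, as in Rela (21.5, 14.7 and 14.9 against 441, 289.8 and 301 RPKM, 4.34 ± 0.39, q = 0.00000957), Nfkb1 (2.63, 1.41 and 0.964 against 70.2, 62.2 and 70.8) and Relb (5.05 ± 0.51). Nfkbia, the inhibitor that NF-kB induces to end its own action, rose from 149, 48.9 and 258 to 1571, 4633 and 1530 RPKM. Macrophages also make these chemokines. The 12 immune markers summed to 141, 23.2 and 75.4 against 77.8, 203 and 51.8 CPM, without separating the groups, with Cd74 and Cd14 higher and Ptprc and Laptm5 lower, and the part of such cells in the chemokine levels was not tested. The F cells, with a mean of 2176 RPKM of Cxcl1, held it too, and the 2d-U cells had 16.5.

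Antigen presentation and interferon-stimulated genes followed, with 15 of 19 tested higher, none lower and a median of 3.83. With a library left out between 11 (without 5d-U replicate 2) and 15 rose. H2-K1 and H2-D1, the classical class I genes, had 34.98, 13.5 and 31.9 and 64.3, 45.1 and 104 RPKM in 5d-U against 555, 1312 and 492 and 925, 2556 and 939.5 in 2+3d-C (4.88 ± 0.53 SE and 4.38 ± 0.52). They share sequence with other class I genes, so the split between them is uncertain. Tapbp (tapasin), which loads peptides on class I, rose by 4.54 ± 0.44, and Ifit1, an interferon-induced RNA sensor, from 0.245, 0.0918 and 0.735 to 22.5, 28.2 and 11.8 RPKM. B2m, the light chain of class I, was above 5d-U in all compressed libraries but did not pass (342, 258 and 753 against 855, 2689 and 794 RPKM, q = 0.063). Replicate 5 was again the highest compressed library for each of these genes except Tapbp.

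Several stress pathways were up in part. In the integrated stress response and serine synthesis list 8 of 24 rose and 5 fell. Ppp1r15a (GADD34), which restores translation, rose from 37.3, 19.8 and 17.2 to 990.1, 1637 and 636 RPKM (5.46 ± 0.53 SE, q = 0.0000152), and the transcription factor Cebpb from 110.3, 74.2 and 27.04 to 1790, 4954 and 1884. Atf4, the central factor of the response, rose less (1.86 ± 0.46, q = 0.00954). The enzymes Phgdh, which starts serine synthesis, and Asns, which makes asparagine, fell instead, Phgdh from 162, 375 and 179.5 to 8.95, 10.6 and 8.31 RPKM (-4.68 ± 0.58) and Asns by -4.06 ± 0.61. Both are known targets of Atf4, and growing cells use them.

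Of 13 endoplasmic reticulum chaperone genes 7 rose and none fell, with a median of 1.54. Hspa5 (BiP), the main chaperone, was the most abundant and went from 343, 585 and 386 RPKM in 5d-U up to 3717, 4780 and 3644 in 2+3d-C (3.21 ± 0.5 SE, q = 0.000529), with all 3 compressed libraries close together. Xbp1, Herpud1 and Dnajb9, targets of the unfolded protein response, rose by 3.18 ± 0.46, 3.51 ± 0.49 and 4.44 ± 0.7. Hsp90b1 and Pdia6 overlapped between the groups (q = 0.81 and 0.561). Among cytosolic chaperones 6 of 22 rose and 3 fell, or 1 fell without 5d-U replicate 6 or 2+3d-C replicate 4 or 10. These falls were near the 13.4% of all tested genes. Bag3, which takes part in tension-induced autophagy, rose from 26.7, 18.4 and 13 to 347, 399 and 326 RPKM (4.21 ± 0.47, q = 0.00004), and Hspa1a and Hspa1b, near-identical genes of inducible HSP70, by 4.91 ± 1.07 and 4.58 ± 0.85. The constitutive Hsp90ab1 gave 0.37 ± 0.4 (q = 0.482).

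Oxidative stress genes had 8 rises and 2 falls among 14, or 5 rises without 5d-U replicate 2, 1 fall without 5d-U replicate 6 or 2+3d-C replicate 4 or 10, and 4 falls without 2+3d-C replicate 5. Srxn1 (sulfiredoxin) rose from 42.3, 47.4 and 40.9 to 1341, 1495 and 479 RPKM (4.67 ± 0.55 SE, q = 0.0000656), and Osgin1 and Gclc by 4.23 ± 0.57 and 2.25 ± 0.38. Nqo1, like Srxn1 a target of Nrf2, fell from 39.2, 20.2 and 100.3 to 3.59, 0 and 1.03 RPKM (-5.04 ± 1.03, q = 0.00313). Genes of the response to low oxygen rose in 11 of 21 cases and fell in 1, or 2 without 2+3d-C replicate 4, with a median of 1.97. Ndrg1 had 1.63, 0.618 and 0.429 RPKM in 5d-U against 299, 201 and 84.5 in 2+3d-C (7.77 ± 0.88, q = 0.0000463), and Vegfa 13.6, 16.4 and 9.77 and 119, 37.8 and 59.7 (2.45 ± 0.45). Hif1a, the oxygen-regulated factor of this response, rose by 2.35 ± 0.6, a call lost without 5d-U replicate 6 (q = 0.0602).

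Glycolytic enzymes, which are also induced by low oxygen, moved the other way. 9 of 19 fell and 3 rose, with a median of -1.22. Eno1 (alpha-enolase) had 696, 782 and 915 RPKM in 5d-U against 34.2, 107 and 63.8 in 2+3d-C (-3.54 ± 0.49 SE, q = 0.000201). Pkm, Pgk1, Tpi1 and Ldha fell too, the last 3 by -2.63 ± 0.41, -2.87 ± 0.46 and -1.78 ± 0.38, while Aldoa overlapped between the groups (q = 0.145). Slc16a3, the lactate exporter, rose from 1.22, 1.14 and 0.441 to 33.2, 29.1 and 24.98 RPKM (4.96 ± 0.56), and so did Pfkfb3 of the hypoxia list, which activates glycolysis (4.26 ± 0.63).

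Nuclear genes of oxidative phosphorylation were lower nearly throughout. 71 of 85 tested fell and none rose, with a median of -2.61, and 45 fell without 5d-U replicate 6. Small subunits led, such as Ndufs6 of complex I (90.3, 125 and 347 RPKM in 5d-U, 6.13, 15.98 and 15.4 in 2+3d-C, -3.91 ± 0.59 SE, q = 0.000392) and Uqcr10 of complex III (269, 468 and 1158 against 28.6, 80.3 and 43.9 RPKM). The beta and alpha subunits of ATP synthase, Atp5b and Atp5a1, did not pass (-0.81 ± 0.36, q = 0.104, and -0.76 ± 0.37, q = 0.122). Replicate 6 of 5d-U was the highest library for Ndufs6 and Uqcr10. The genes of the mitochondrial genome fell in 2 of 10 cases, mt-Nd1 and mt-Cytb. Replicate 1 of 5d-U had 10960 RPKM of mt-Nd1 against 1334 and 2624 in the other 2 uncompressed libraries and 456, 996 and 1056 in 2+3d-C, and without it neither gene passed (q = 0.152 and 0.231). Without 2+3d-C replicate 4 neither passed as well (q = 0.0802 and 0.124), and mt-Cytb kept its call only when 5d-U replicate 2 was the library left out (q between 0.061 and 0.231 without each of the others).

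Messages of the ribosome and the proteasome were lower in part. 38 of 83 ribosomal protein genes fell and none rose (median -1.53), but 15 fell without 5d-U replicate 6, 17 without 2+3d-C replicate 4 and 23 without 2+3d-C replicate 10. The ribosomal protein-like gene Rps27l fell from 609, 847 and 2262 to 54.5, 174 and 139.8 RPKM (-3.34 ± 0.69 SE, q = 0.00338) and Rps21 from 105, 139.8 and 267 to 12.1, 24.9 and 26.8. The most abundant one, Rplp0, overlapped (1283, 1271 and 2612 against 658, 1699 and 996 RPKM, q = 0.263). Ribosomal protein genes have many processed copies in the genome that can share their reads. Of 38 proteasome subunits 14 fell and 1 rose, a rise not called without 5d-U replicate 1 or 2 or 2+3d-C replicate 5, and 4 fell without 5d-U replicate 6, 5 and 6 without 2+3d-C replicate 4 and 10, and 23 without 2+3d-C replicate 5. Psmd5, an assembly chaperone, had even levels in each group (62.4, 61.7 and 69.6 against 3.93, 2.55 and 5.49 RPKM, -4.01 ± 0.45, q = 0.000041). Lysosome and autophagy genes went up in 9 of 23 cases and down in 1. The autophagy receptor Sqstm1 (p62) rose from 324, 251 and 179 to 2598, 2804 and 1933 RPKM (3.28 ± 0.44, q = 0.000167), Gabarapl1 by 3.2 ± 0.42 and the kinase Ulk1, which starts autophagy, by 3.79 ± 0.71, while the cathepsin Ctsl overlapped (q = 0.934).

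**Figure D4:**
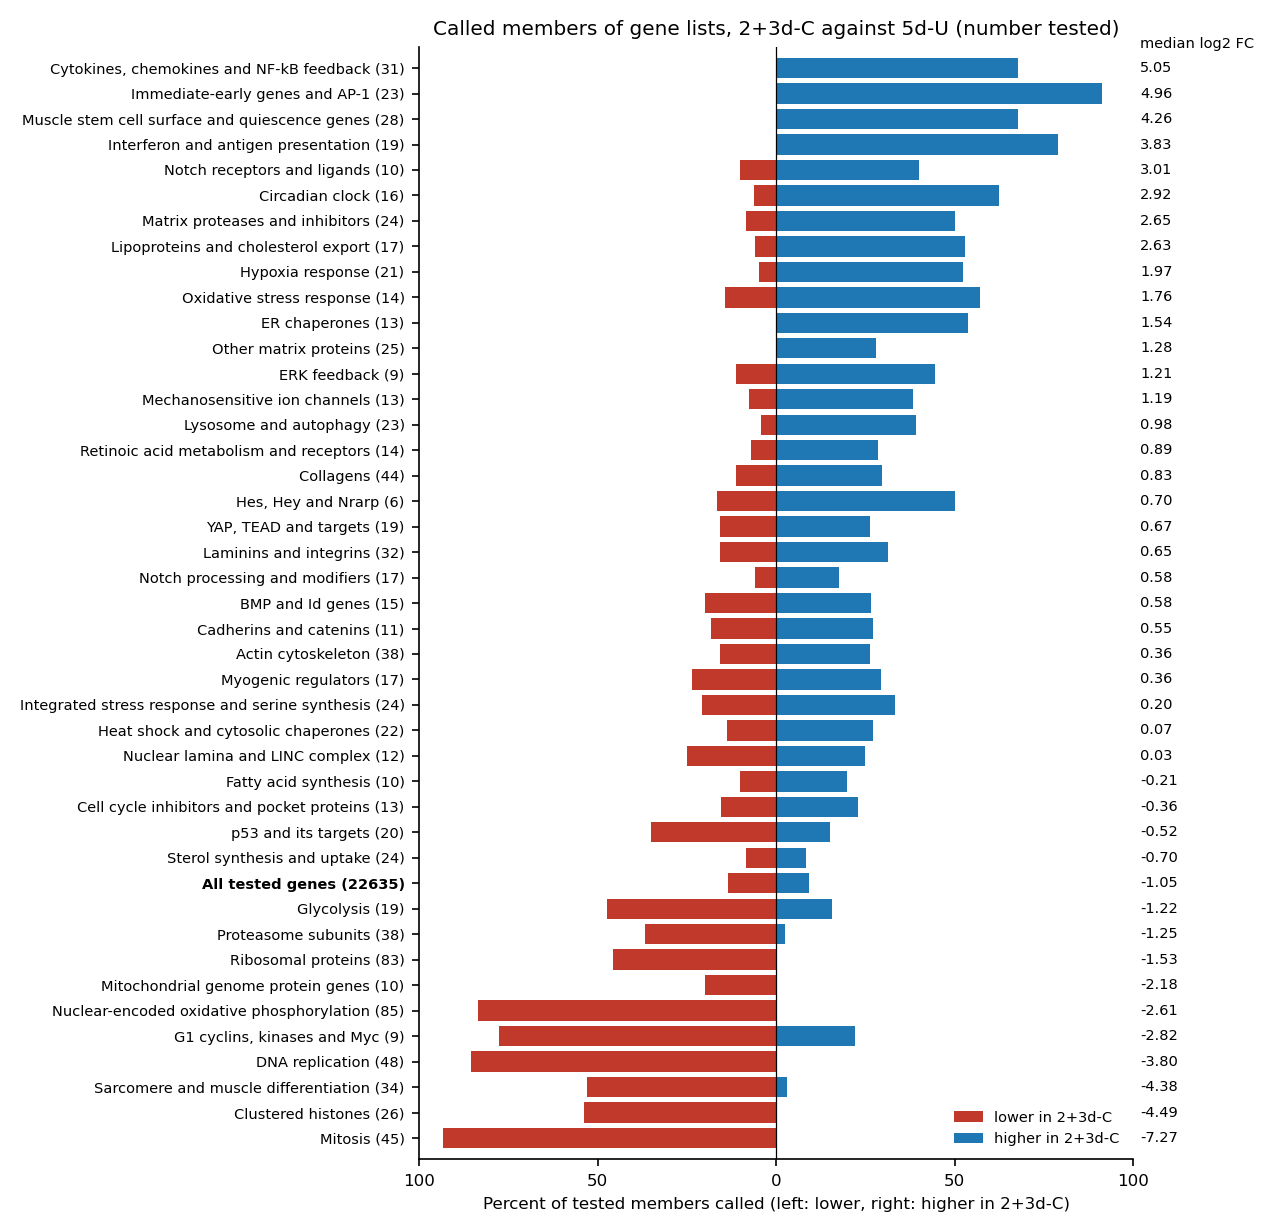
Percent of the tested members of each gene list that were lower (left) or higher (right) in 2+3d-C at an adjusted p under 0.05, with the median log2 fold change of the list beside its bar and all tested genes as reference (13.4% lower, 9.14% higher). Mitosis and DNA replication stood at the lower end with no member higher, and immediate-early, antigen presentation, quiescence and cytokine genes at the higher end with no member lower.

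Matrix genes were higher in part. 13 of 44 collagen genes rose and 5 fell (all tested genes: 9.14% higher, 13.4% lower), with a median of 0.83. Without 5d-U replicate 6, 9 rose and 1 fell. With any other library left out between 1 and 3 collagen genes fell. The median turned to -0.42 without 2+3d-C replicate 4, with 10 rises and 3 falls. Col5a1 and Col5a3, chains of collagen V, which MuSCs are known to make for their own niche, had 1.54, 1.69 and 1.55 and 0.274, 0.0767 and 0.151 RPKM in 5d-U against 25.3, 6.199 and 25.8 and 34.7, 4.92 and 26.9 in 2+3d-C (3.58 ± 0.64 SE, q = 0.00133, and 7.05 ± 1.34, q = 0.00199). Col6a1 rose from 0.545, 0.143 and 0.167 to 47.8, 8.397 and 50.6 RPKM and Col4a1, of basement membranes, from 3.897, 7.79 and 2.55 to 109, 13.5 and 85.8. In all 4 genes replicate 5 of 2+3d-C was several times lower than the other 2 compressed libraries and yet above 5d-U. Col5a2 did not differ detectably (14.3, 15.2 and 3.95 against 16.8, 6.12 and 13 RPKM, q = 0.898). Fibroadipogenic cells make most of these collagens as well. Their markers differed in pattern. Col1a1, itself a collagen, was at 0.278, 0.0637 and 0.0818 RPKM in 5d-U against 10.01, 0.845 and 10.6 in 2+3d-C, with replicate 5 again lowest. Dpt was highest in replicate 5, and the 12 markers summed to 2837, 2553 and 4466 CPM in 2+3d-C. The part of such cells in the collagen levels was not tested.

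Laminins and integrins had 10 rises and 5 falls among 32 genes, or 5 rises without 5d-U replicate 6 or 2+3d-C replicate 4, 6 without 5d-U replicate 2, and 3 falls without 5d-U replicate 2 or 6 or 2+3d-C replicate 5. Lamc1 and Lama2, chains of the laminins of the MuSC basement membrane, rose by 4.02 ± 0.59 SE and 4.15 ± 0.75, Lama2 from 0.6903, 0.149 and 0.206 to 8.04, 2.45 and 8.11 RPKM. The fibronectin receptor subunit Itga5 went from 3.88, 6.14 and 2.33 to 60.7, 11.9 and 60.6 RPKM and Itgav from 2.999, 2.59 and 1.69 to 30.3, 13.04 and 19.4, while Itgb1, their common partner, overlapped (96.6, 192 and 64.5 against 189, 62.9 and 205, q = 0.561). Of 25 other matrix proteins 7 rose and none fell, or 4 without 5d-U replicate 2 or 6. Ogn (osteoglycin) rose from 2.56, 6.52 and 3.62 to 47.5, 75.9 and 56.9 RPKM (3.83 ± 0.46, q = 0.0000769) and Thbs2 from 0.694, 0.811 and 0.244 to 69.1, 8.09 and 145. Matrix proteases and their inhibitors rose in 12 of 24 cases and fell in 2, or in 1 without 5d-U replicate 1 or 6 or 2+3d-C replicate 5 or 10. Adamts1, a secreted protease, rose from 1.24, 1.32 and 0.507 to 299, 43.5 and 126 RPKM (7.25 ± 0.77, q = 0.0000301), the collagen crosslinkers Lox and Loxl1 by 5.02 ± 0.9 and 3.76 ± 0.62, and the plasminogen activator Plat by 8.44 ± 1.52.

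Of 38 genes of the actin cytoskeleton 10 rose and 6 fell (all tested genes: 9.14% higher, 13.4% lower). The falls were thus near the share of all tested genes. Without 5d-U replicate 6, 5 rose and 4 fell, and without 2+3d-C replicate 4, 3 rose and 6 fell. Beta-actin (Actb), the main subunit of the cytoplasmic filaments, had 6033, 3980 and 8518 RPKM in 5d-U against 1728, 2482 and 511 in 2+3d-C (-1.97 ± 0.51 SE, q = 0.0134), and did not pass without 5d-U replicate 6 (q = 0.0623). Tropomyosin 1 (Tpm1), which lines the filaments, fell from 246, 517 and 460.3 to 18.5, 44.1 and 15.6 RPKM (-3.97 ± 0.56, q = 0.000235), without overlap. Filamin C (Flnc), a muscle crosslinker that senses tension, rose from 3.54, 2.85 and 1.45 to 330.4, 72.1 and 227 (6.33 ± 0.86, q = 0.000184), and the kinase Rock2, which activates myosin, by 1.92 ± 0.42. Cofilin (Cfl1) and thymosin (Tmsb4x) overlapped between the groups (q = 0.111 and 0.185).

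YAP and TAZ carry mechanical signals to the nucleus through TEAD factors. Of 19 genes of this axis 5 rose and 3 fell, or 5 fell without 2+3d-C replicate 4 (all tested genes: 9.14% higher, 13.4% lower). Ccn1 and Ccn2, the best known targets, went from 675, 203 and 214 and 52.1, 5.73 and 1.33 RPKM in 5d-U up to 2758, 5300 and 1615 and 1155, 937 and 1851 in 2+3d-C (3.15 ± 0.56 SE, q = 0.00133, and 6.06 ± 1.12, q = 0.00164). Ankrd1, another known target, fell from 885, 852 and 829 to 71.1, 171 and 27.4 RPKM (-3.25 ± 0.77, q = 0.0078), and Axl overlapped (q = 0.302), so the targets were not uniform. Wwtr1 (TAZ) rose by 2.03 ± 0.41, and Tead2 fell from 3.17, 15.3 and 8.43 to 0.657, 0 and 0.0286 RPKM. Of 13 mechanosensitive channels 5 rose and 1 fell, or 3 rose without 5d-U replicate 6. Piezo1, opened by membrane stretch, had 3.65, 1.52 and 2.25 RPKM in 5d-U against 33.6, 5.67 and 13.7 in 2+3d-C (2.84 ± 0.65, q = 0.00621; 24.6% of its exon length is shared), and Kcnk2, a stretch-activated potassium channel, was at least 58.5-fold lower.

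In the nuclear envelope 3 of 12 genes rose and 3 fell. Lmna (lamin A/C), the lamin of stiff nuclei, rose from 299, 614 and 373 to 1164, 1843 and 1102 RPKM (1.68 ± 0.39 SE, q = 0.00714), and Lmnb1, which dividing cells express, fell from 17.3, 39.4 and 20.6 to 4.72, 6.92 and 1.93 (-2.52 ± 0.53, q = 0.00404). Syne2 (nesprin-2), which ties the nucleus to actin, rose by 4.27 ± 0.49, and Emd by 2.53 ± 0.59. Among cadherins and catenins 3 of 11 rose and 2 fell. The MuSC niche cadherin Cdh15 (M-cadherin) overlapped between the groups (13.6, 61.3 and 15 against 61.7, 37.4 and 65.5 RPKM, q = 0.203), N-cadherin (Cdh2) fell from 8.47, 18.6 and 5.58 to 1.82, 0.254 and 0.402 (-3.7 ± 0.77, q = 0.00362), and Cdh13 (T-cadherin) rose from 2.35, 1.95 and 1.704 to 26.03, 33.3 and 46.4 (4.14 ± 0.39, q = 0.0000132).

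**Figure D5:**
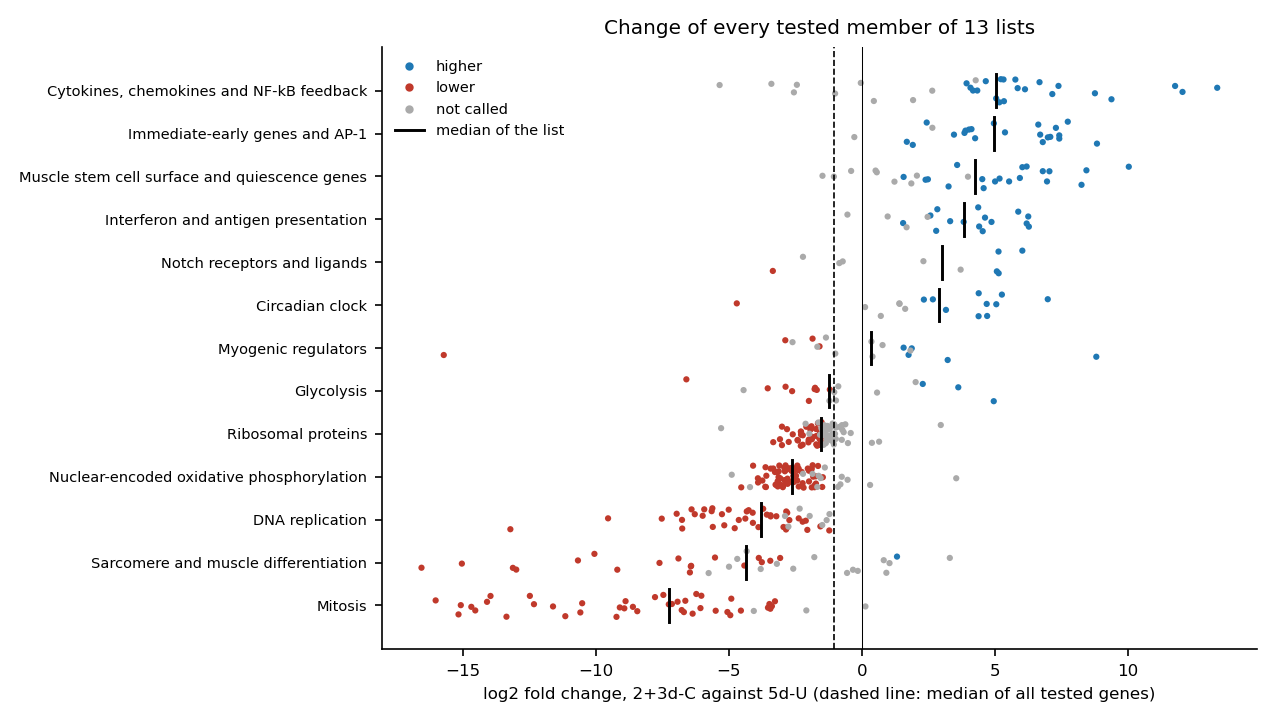
Log2 fold change (2+3d-C minus 5d-U) of every tested member of 13 gene lists, 1 point per gene. Blue points were higher and red points lower at an adjusted p under 0.05, and gray points were not called. The median of each list and a line at the median of all tested genes (-1.05) are drawn. Mitosis and DNA replication genes lay below 0 except Pttg1, and 22 of the 23 immediate-early genes lay above 0.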

How the data were processed

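RNA from 12 libraries of mouse MuSCs was sequenced from one end after SMART-Seq v4 amplification, and 6 of them, 3 of 2+3d-C and 3 of 5d-U, were compared. The authors aligned reads to mm10 and counted them per gene with featureCounts 1.6.4 without regard to strand, and deposited these counts, unnormalized, with gene coordinates and exon lengths. No column of the table was left unused (0 unused per-sample columns). Groups come from the labels.

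The test was the quasi-likelihood F test of edgeR 4.0.16 (R 4.3.3) on the deposited counts, with filterByExpr by group, TMM scaling, 1 fit of the 4 group means over all 12 libraries, the two-sided contrast 2+3d-C minus 5d-U, and Benjamini-Hochberg adjustment over 22635 genes, with a call at an adjusted p under 0.05. SE was derived from the F statistic. A group with 3 or fewer reads in each library was set to 3 reads to give a fold limit. The procedure was tested on simulated data. The replicates of a group differed by more than sampling noise (chi-square per degree of freedom 307 to 532). Exon overlaps between genes used GenomicRanges 1.54.1.

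Gene lists and members were chosen with earlier results of these data known, and no set test was made. Named were the 10 largest rises and falls (mean of at least 10 CPM, groups not overlapping, named nuclear genes), and, of each list, up to 4 members by p, up to 4 by CPM, and all members of lists of up to 17. A few genes under this rule are not reported here. Alternatives were DESeq2 1.42.0, no TMM, no low-count filter, the 6 libraries alone, no mitochondrial genes, genes of at least 5 CPM, subtraction of silent-family read density, other thresholds, and each library left out.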

Additional observations from a re-analysis of the deposited data

How the results depend on the processing

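No paired analysis was possible because the 5d-U numbers (1, 2 and 6) and the 2+3d-C numbers (4, 5 and 10) have none in common, and the batches of the libraries are not given. DESeq2 with its size factors gave 3223 genes higher (4058 lower), and an adjusted p under 0.01 gave 1128 higher and 1377 lower. With 1 library left out, between 1371 (without 5d-U replicate 6) and 2389 (without 2+3d-C replicate 5) genes were higher and between 1648 and 3015, without the same libraries, lower. Without TMM 1693 were higher and 3446 lower, with the 6 libraries alone 1682 and 2287 of 15055, and with silent-family reads subtracted 2575 and 2774 of 18675. The median over all genes ran from -2.02 without a filter on low counts to -0.08 among genes of at least 5 CPM. No called gene was called in the opposite direction under any of these settings. Of 471 named genes 295 were called, of which 63 lost the call with at least 1 library left out and 40 under at least 1 other setting. Rare genes limit the comparison: 5678 tested genes were at or under 3 reads in each 2+3d-C library, and their fitted fold changes are no measure of size.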

Other observations

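Clock genes were higher in the compressed cells: 10 of 16 rose and 1 fell, with a median log2 fold change of 2.92 against -1.05 over all tested genes. Without 5d-U replicate 2 or 2+3d-C replicate 4, 8 rose. Nr1d1, a repressor of the clock's positive limb, had 10.9, 1.2 and 1.75 RPKM in 5d-U against 97.8, 108 and 158 in 2+3d-C (4.71 ± 0.8 SE, edgeR q = 0.000941), and its opposite Rora had 0.654, 0.168 and 0.396 and 13.2, 18.6 and 8.704 (5.06 ± 0.67). Genes that peak at opposite times of day, Arntl and Per1, rose together (3.16 ± 0.55 and 4.39 ± 0.82), while Dbp, an output gene of the clock, overlapped between the groups (1.25, 1.303 and 2.46 against 0.826, 1.65 and 2.97 RPKM, q = 0.93). The time of day of lysis is not given in the sources used here.

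In the retinoic acid list 4 of 14 genes rose and 1 fell, or 3 fell without 2+3d-C replicate 4 and 2 without replicate 5. Cyp26a1, the enzyme that degrades retinoic acid and that retinoic acid induces, had 0.175, 0.0351 and 0.0246 RPKM in 5d-U against 66.1, 226 and 62.8 in 2+3d-C (10.53 ± 1.04 SE, edgeR q = 0.0000362), and the receptor Rarg rose from 0.948, 1.44 and 1.24 to 10.9, 5.32 and 6.28. The binding protein Crabp1 had 10.2, 3.87 and 5.42 RPKM in 5d-U and no read in 2+3d-C, at least 28.2-fold lower. Lipoprotein and cholesterol export genes rose in 9 of 17 cases, or 5 without 5d-U replicate 6, and fell in 1, a call lost without 5d-U replicate 2 or 6 or 2+3d-C replicate 4 or 10, with Vldlr at 0.604, 0.484 and 0.102 against 6.49, 3.88 and 18.6 RPKM (4.6 ± 0.77, q = 0.000849). Sterol synthesis had 2 rises and 2 falls among 24 genes, both under the shares of all tested genes (9.14% higher, 13.4% lower). It had 0 rises and 1 fall without 2+3d-C replicate 4, and 1 fall without 5d-U replicate 6. It had 1 rise without 5d-U replicate 1 or 2 or 2+3d-C replicate 10. Mevalonate kinase (Mvk) was at 5.23, 8.14 and 15.95 against 0.266, 0 and 0.154 RPKM (-5.96 ± 0.95, q = 0.000617). Fatty acid synthesis had 2 rises and 1 fall among 10 (4 rises without 2+3d-C replicate 5, 2 falls without replicate 4, and 1 rise without 5d-U replicate 1 or 6 or 2+3d-C replicate 4 or 10). The genes of the silent families had 3 falls and no rise among 477 tested, with a median of -6.50 as fitted and -1.14 with genes near 0 at their limits.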
